A study of Oryza sativa with 6 samples.

Results

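Antisense transcripts outside the annotation are RNAs assembled from the reads that carry class code x, the code for a transcript that overlaps an annotated exon on the other strand. The members were taken by that code from the transcript table deposited with a study of rice leaves, and 2647 of its 57680 transcripts carried it. The study sprayed seedlings of CA21, a non-transgenic glyphosate-tolerant rice line obtained by mutagenesis, at the third-leaf stage with 2 mg/ml glyphosate (GLY, 3 libraries) and left others of the same line without spray (CK, 3 libraries), so every sample carries the CA21 background. CK plants had no mock spray, so glyphosate and the act of spraying cannot be told apart. The libraries were made from ribosomal RNA-depleted total RNA of leaves and sequenced as read pairs. The interval between spray and harvest of the sequenced leaves and the number of plants in a library are not given in the sources used here, so p-values measure the spread between these 6 libraries, which may in part be technical.

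Glyphosate blocks EPSP synthase of the shikimate pathway, the route by which plants make aromatic amino acids. An antisense transcript is read from the DNA strand opposite to a gene, and in plants such RNAs are known to affect the gene they overlap in several ways, among them collision of polymerases, changes of chromatin, and double-stranded RNA that is cut into small RNAs. Others have no known effect. Whether an antisense transcript and its gene move together or apart after a treatment is therefore the first thing asked of such a pair.

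Levels were given as FPKM, which counts fragments relative to transcript length and to the mapped fragments of the library, so it is a level per length. Mapped depth, read from the ratio of coverage to FPKM in each library, was between 3.43 and 4.40 Gb and was higher in GLY (4.16 ± 0.293 Gb) than in CK (3.65 ± 0.195 Gb) in every library (SD, n = 3 each, two-sided exact permutation test, p = 0.1, the smallest that 3 against 3 allows). By the valid reads that the paper lists, the order was the reverse, with every CK library above every GLY library. Genes described as chlorophyll a-b binding proteins, which define green leaf tissue, summed to between 25720 and 36686.5 FPKM in GLY and between 42011.5 and 47659.5 FPKM in CK over 17 genes, and 0 to 2 of these genes were listed at 0 in a library. In GLY3 the gene LOC_Os09g17740 of this family had a value of 0, beside 8657 FPKM in GLY1 and 8398 FPKM in GLY2. A value of 0 in these data may therefore be a failed estimate, and no fold change is given against a group whose libraries are all listed at 0.

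The members were short, weak and mostly unspliced. Of the 2647, 2000 (75.6%) had a single exon and 647 had 2 or more, against 13.8% with a single exon among the 35848 annotated transcripts. Their median length was 493 bases (range 200 to 19715), against 1703 bases for annotated transcripts. The median of their mean level was 0.452 FPKM, against 0.565 FPKM for annotated transcripts, and the median coverage was 1.77 reads per base. They came from 2454 assembled loci, of which 131 gave several members, with 1288 members on the plus and 1359 on the minus strand.

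The annotated gene on the opposite strand whose span overlapped a member by the most bases was taken as its partner. By this rule 2490 members had a partner, 1961 genes in all, and 157 overlapped no annotated gene in the table. Of the 2490, 1399 lay wholly inside the span of the partner, 507 ran over its 3' end, 430 ran over its 5' end, and 154 covered it. Of all members, 9 also overlapped an annotated transcript on their own strand. Only spans are in the table, so overlap of exons was not measured. Every one of the 5703 single-exon unannotated transcripts in the table (codes x, u and i) carried a strand. The strandedness of the library kit is not given in the sources used here, and without strand the reads of a gene and of its antisense partner cannot be told apart, which holds for every pair below.

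By a call rule on unadjusted P, antisense transcripts changed about as often as all transcripts did. A transcript was called when it differed by at least 1 on the log2(FPKM + 1) scale with P under 0.05 in limma's moderated test, which was fitted over the 32646 transcripts whose mean reached 0.5 FPKM. Of the members, 1203 passed that filter. Of these, 111 from 107 loci were called (9.23%), 67 higher and 44 lower in GLY, against 9.33% of all transcripts tested (6.66% higher and 2.66% lower). With a Benjamini-Hochberg adjusted p under 0.05 from limma as well, 75 of 1203 were called, 45 higher and 30 lower, against 1600 of 32646 transcripts (4.9%). That count fell when a library was left out, to 22 without GLY1, 20 without GLY2, 34 without GLY3, 22 without CK1, 28 without CK2 and 19 without CK3. Of the 75, 8 were listed at 0 in all GLY libraries and 9 in all CK libraries. Such members passed the filter through the other group alone, so their separation was in part fixed by it. The 3 GLY values lay wholly above or below the 3 CK values in 387 members (32.2%), against 30.5% of all transcripts.

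The split between higher and lower calls depended on the scaling between libraries. The median log2 fold change, GLY over CK, was 0.14 in the members and 0.18 in all transcripts tested, so the members lay at -0.04 relative to the table. After scaling by the median of ratios these medians were -0.02 and 0.01, and 47 members were called higher and 62 lower, in place of 67 and 44.

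The share called was similar over the structural classes of the members, with 1 exception. It was 9.05% for single-exon members (65 of 718 tested) and 9.48% for those with 2 or more exons (46 of 485). Inside the partner it was 8.5% (39 of 459), over the 3' end 8.25% (24 of 291), over the 5' end 8.87% (22 of 248), and for members covering the partner 7.21% (8 of 111). Among members with no partner by position it was 19.1% (18 of 94, 14 of them higher). This difference between classes was not tested.

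The difference in summed antisense RNA depended on the scaling between libraries. As deposited, the sum over all members was 3657 ± 229 FPKM in GLY and 3712 ± 141 FPKM in CK (SD, n = 3 each, exact permutation test, p = 0.7). After scaling by the median of ratios it was 3243 ± 213 FPKM in GLY and 3939 ± 148 FPKM in CK, with no overlap (n = 3 each, exact permutation test, p = 0.1). The number of members above 0 was 1639 ± 41.4 in GLY and 1627 ± 17.7 in CK (n = 3 each, exact permutation test, p = 0.7). Members held 0.623 ± 0.0187% of all transcript FPKM in GLY and 0.588 ± 0.0205% in CK (n = 3 each, exact permutation test, p = 0.2). The direction of the deposited sum also depended on the 10 most abundant members. Without them it was 2464 ± 72.5 FPKM in GLY and 2190 ± 64.0 FPKM in CK, and the groups did not overlap (n = 3 each, exact permutation test, p = 0.1). The sum also lay higher in GLY without GLY3, by 41.0 FPKM, and without CK2, by 24.3 FPKM. In count, 1274 ± 31.5 members reached 0.5 FPKM in GLY and 1158 ± 28.9 in CK, again with no overlap (n = 3 each, exact permutation test, p = 0.1). This count and the sum without the 10 most abundant members were taken on deposited values alone. The scaling factors, by which values are divided, were 1.12 to 1.14 in GLY and 0.925 to 0.952 in CK. The GLY libraries were deeper by the ratio of coverage to FPKM, but not by the valid reads of the paper. The part of scaling and of depth in these differences was not tested.

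Of the 5 most abundant antisense transcripts, MSTRG.7373.2 had the highest mean level. This transcript, on chromosome 12 (11262525 to 11267993, 2 exons, minus strand), ran over the 5' end of LOC_Os12g19381, which encodes a small chain of ribulose bisphosphate carboxylase, the carbon-fixing enzyme. It had 437, 384 and 374 FPKM in GLY, against 516, 578 and 544 FPKM in CK. The partner had 2901, 2973 and 3195 FPKM in GLY, against 4789, 4539 and 4234 FPKM in CK. Both were lower in every GLY library, and neither passed the fold threshold (log2 fold change -0.46 ± 0.10 SE, limma adjusted p = 0.0564, and -0.58 ± 0.07 SE, limma adjusted p = 0.0082).

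The other abundant members did not separate the groups to that extent. Of these 5 members, 2 flank LOC_Os07g04840, which encodes PsbP, an extrinsic protein of photosystem II. MSTRG.21864.1 over its 3' end had 108, 120 and 112 FPKM in GLY, against 130, 134 and 132 FPKM in CK. MSTRG.21866.1 over its 5' end was listed at 0 in GLY3 and in CK3, with 281 and 215 FPKM in GLY1 and GLY2, against 205 and 252 FPKM in CK1 and CK2. MSTRG.16757.1, a member of 230 bases against LOC_Os04g53970 (an expressed protein with no named function), had 334, 279 and 338 FPKM in GLY, against 414, 550 and 327 FPKM in CK. MSTRG.11775.1, over the 3' end of the gene for the copper-transporting ATPase PAA1 (LOC_Os03g08070), had 61.9, 61.3 and 66.9 FPKM in GLY, against 59.4, 62.0 and 52.8 FPKM in CK.

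**Figure D1:**
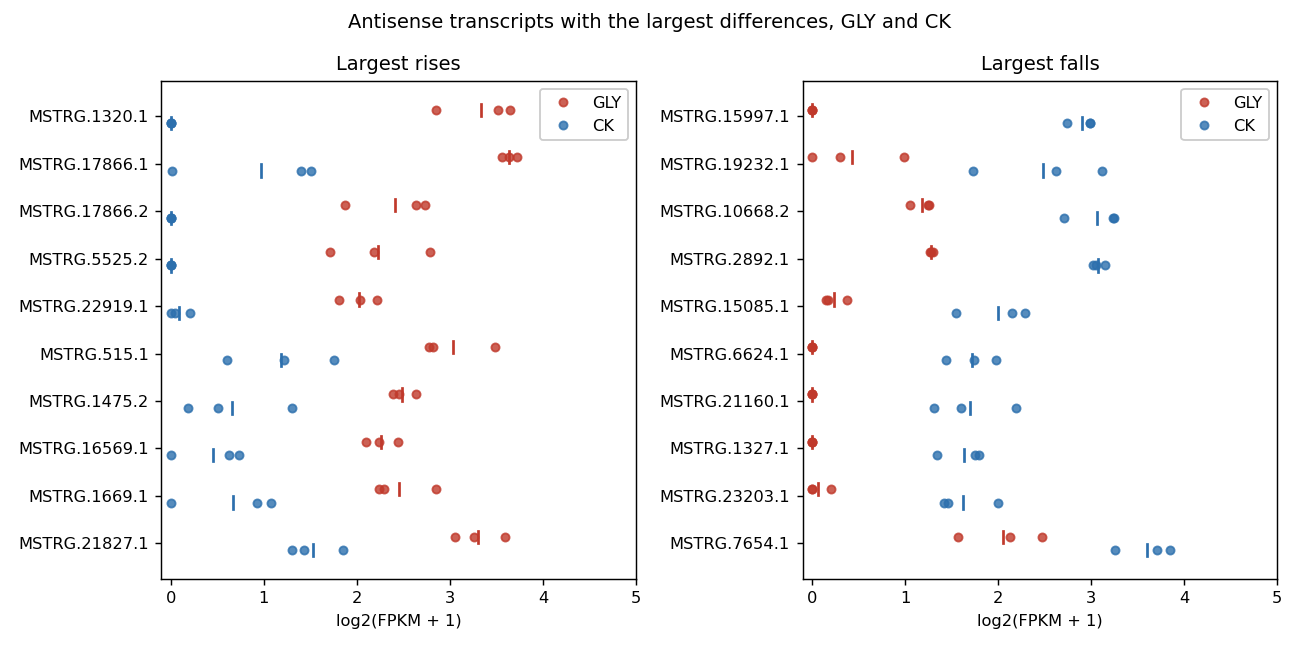
Levels of the 10 antisense transcripts with the largest rises (left panel) and the 10 with the largest falls (right panel) as log2(FPKM + 1) on the horizontal axis, 1 row per transcript; red points are the 3 GLY libraries, blue points the 3 CK libraries, and short bars the group means. The groups do not overlap in any of these 20 rows, which the choice of the rows required, and MSTRG.1320.1 and MSTRG.15997.1 head the panels.

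Among the 10 largest rises, the first was at a locus with almost no sense expression. Others lay at expressed genes, among them MSTRG.5525.2 and MSTRG.1669.1, whose partners had means of 28.8 and 324 FPKM in GLY. MSTRG.1320.1 on chromosome 1 (16980507 to 16982905, 2 exons) had 6.23, 11.5 and 10.5 FPKM in GLY and was listed at 0 in all 3 CK libraries (limma adjusted p = 0.00279). Its coverage reached 48.9 reads per base. A filter on the mean over 6 libraries lets a member that is at or near 0 in 1 group pass through the other group alone. The separation of such members is in part fixed by the filter, in either direction, and their adjusted p is given as a description only; this holds for MSTRG.1320.1 and for every member below that is listed at or near 0 in GLY or in CK. The partner LOC_Os01g31050, an expressed protein of no named function, stayed under 0.05 FPKM in all 6 libraries.

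The longest member, MSTRG.17866.1, and its spliced form MSTRG.17866.2 span chromosome 5 from 11997501 to 12017215 and cover LOC_Os05g20470, another expressed protein. MSTRG.17866.1 had 11.4, 12.2 and 10.8 FPKM in GLY, against 1.84, 0.00967 and 1.64 FPKM in CK (log2 fold change 2.67 ± 0.42 SE, limma adjusted p = 0.0223). MSTRG.17866.2 had 5.20, 5.65 and 2.66 FPKM in GLY, against 0, 0.000421 and 0 FPKM in CK (limma adjusted p = 0.00914). The gene they cover had 0.575, 1.12 and 1.06 FPKM in GLY, against 0.483, 0.325 and 0.202 FPKM in CK, which did not pass the fold threshold (log2 fold change 0.51 ± 0.18 SE).

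Further named rises lay against a beta-amylase, a transporter and a villin gene. MSTRG.22919.1 (chromosome 7, 21505260 to 21509571, 5 exons), over the 3' end of a beta-amylase gene (LOC_Os07g35940; the enzyme releases maltose from starch), had 3.09, 2.51 and 3.64 FPKM in GLY, against 0.153, 0 and 0.0350 FPKM in CK. Its log2 fold change was 1.93 ± 0.19 (SE, limma adjusted p = 0.00645). MSTRG.21827.1, inside the transporter family gene LOC_Os07g03960, had 7.34, 8.60 and 11.0 FPKM in GLY, against 1.47, 1.69 and 2.62 FPKM in CK (log2 fold change 1.78 ± 0.23 SE, limma adjusted p = 0.0142). That transporter gene itself had 14.4, 15.2 and 18.0 FPKM in GLY, against 10.2, 9.09 and 9.91 FPKM in CK, a log2 fold change of 0.65 ± 0.13 (SE, limma adjusted p = 0.0276) that is under the fold threshold. MSTRG.16569.1 overlaps the 3' end of a villin gene by 83 bases (LOC_Os04g51440; villins bundle actin filaments). It had 3.72, 4.43 and 3.27 FPKM in GLY, against 0.667, 0 and 0.547 FPKM in CK (log2 fold change 1.80 ± 0.25 SE, limma adjusted p = 0.0176).

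MSTRG.515.1 on chromosome 1 (5171696 to 5172810) overlapped no annotated gene in the table, which assigns it to LOC_Os01g09940. Its values were 10.2, 6.07 and 5.86 FPKM in GLY, against 1.32, 0.515 and 2.37 FPKM in CK (log2 fold change 1.84 ± 0.36 SE, limma adjusted p = 0.0393). The member with the most exons, MSTRG.1475.2 with 22, covers the small gene LOC_Os01g35910 and had 4.22, 4.49 and 5.19 FPKM in GLY, against 0.417, 0.135 and 1.47 FPKM in CK (log2 fold change 1.83 ± 0.31 SE, limma adjusted p = 0.0289). In both, every GLY library lay above every CK library.

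The largest fall was at a B-box zinc finger gene. B-box proteins are transcription regulators, several of which act in light signalling and flowering. MSTRG.15997.1 (chromosome 4, 24648654 to 24649539, plus strand, 1 exon) runs over the 5' end of LOC_Os04g41560 (24647901 to 24649396). It was listed at 0 in all 3 GLY libraries and had 5.68, 6.90 and 6.94 FPKM in CK (limma adjusted p = 0.0012), with coverage up to 26.2 reads per base. The B-box gene itself was abundant in both groups, at 1528, 1484 and 1539 FPKM in GLY, against 1831, 1912 and 1921 FPKM in CK. Its log2 fold change of -0.32 ± 0.06 (SE, limma adjusted p = 0.0227) had the same sign and was under the fold threshold.

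MSTRG.10668.2, MSTRG.10668.3 and MSTRG.10668.4 form 1 antisense locus of 3 called members against OsMADS57 (LOC_Os02g49840), a MADS-box transcription factor gene with a known role in rice tillering. The last 2 were named after their values were seen. MSTRG.10668.2 (chromosome 2, 30458853 to 30464345, minus strand, 4 exons) had 1.37, 1.39 and 1.07 FPKM in GLY, against 8.51, 8.44 and 5.55 FPKM in CK (log2 fold change -1.88 ± 0.21 SE, limma adjusted p = 0.00906). The other 2 had log2 fold changes of -1.31 and -1.33 (limma adjusted p = 0.0423 and 0.0478). These forms share a span, so they are not independent of each other. OsMADS57 itself had 3.43, 0.352 and 4.13 FPKM in GLY, against 1.28, 2.85 and 1.03 FPKM in CK, and the groups overlapped (log2 fold change 0.26 ± 0.57 SE, limma adjusted p = 0.80). In GLY the mean of MSTRG.10668.2 was 48.4% of that of OsMADS57, and in CK it was 436%.

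MSTRG.19232.1 and MSTRG.19230.1 flank a MYB family transcription factor gene on chromosome 5 (LOC_Os05g50340). MSTRG.19232.1 over its 5' end had 0.991, 0 and 0.236 FPKM in GLY, against 2.31, 5.15 and 7.67 FPKM in CK (log2 fold change -2.05 ± 0.43 SE, limma adjusted p = 0.0497). MSTRG.19230.1 over its 3' end, named after its values were seen, had a log2 fold change of -1.42 ± 0.27 (SE, limma adjusted p = 0.0381). The MYB gene did not pass the filter; it had 0, 0 and 0.247 FPKM in GLY, against 1.24, 0.588 and 0.714 FPKM in CK, also lower in every GLY library.

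Other falls were at genes of no named function, at a retrotransposon and at a cytochrome P450 gene. MSTRG.2892.1, inside LOC_Os01g60830, had 1.46, 1.42 and 1.41 FPKM in GLY, against 7.09, 7.32 and 7.85 FPKM in CK (log2 fold change -1.79 ± 0.15 SE, limma adjusted p = 0.00366). The gene it lies in had 181, 94.8 and 161 FPKM in GLY, against 252, 231 and 249 FPKM in CK, and was not called (log2 fold change -0.79 ± 0.25 SE, limma adjusted p = 0.0986). MSTRG.15085.1, against LOC_Os04g16230, had 0.108, 0.299 and 0.123 FPKM in GLY, against 3.45, 1.91 and 3.89 FPKM in CK (limma adjusted p = 0.0179). Listed at 0 in all GLY libraries were MSTRG.6624.1 at a retrotransposon gene (2.95, 2.33 and 1.71 FPKM in CK), MSTRG.21160.1 at the P450 gene LOC_Os06g43350 (3.56, 2.04 and 1.49 FPKM in CK) and MSTRG.1327.1 at LOC_Os01g31570 (2.47, 2.36 and 1.54 FPKM in CK), with limma adjusted p of 0.0121, 0.023 and 0.0132. MSTRG.23203.1, assigned to LOC_Os07g40920, had 0, 0.154 and 0 FPKM in GLY, against 1.66, 1.76 and 2.98 FPKM in CK (limma adjusted p = 0.02).

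In 865 pairs both the antisense transcript and the partner passed the filter, with 717 partner genes among them. Of these genes 63 were called, 38 higher and 25 lower in GLY (8.79%), against 8.62% of the 14980 annotated genes tested in the same way on summed FPKM (6.22% higher and 2.4% lower). The antisense level was a median of 8.86% of that of the partner (interquartile range 1.03 to 54.5%). For single-exon members the median was 2.58%, and for members with 2 or more exons it was 54.6%. In 215 pairs the antisense transcript was under 1% of its partner, and in 115 pairs it was above 100%.

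**Figure D2:**
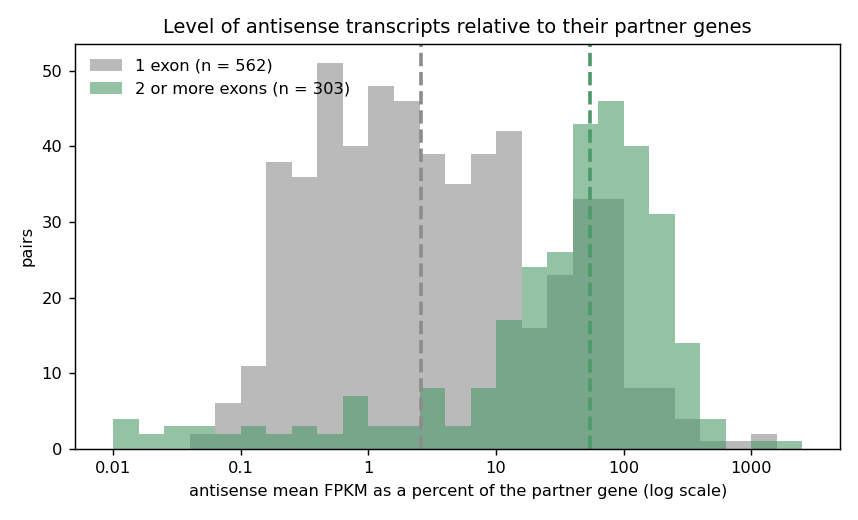
Mean FPKM of the antisense transcript as a percent of the mean FPKM of its partner gene, over the 6 libraries, on a log scale; bars count pairs, grey for members with 1 exon and green for members with 2 or more exons, and the dashed lines are the medians. The grey median is at 2.58% and the green median at 54.6%.

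No pair moved in opposite directions by the call rule. In 23 pairs, with 20 partner genes, both sides were called in limma, and the sign was the same in all 23, with 19 pairs higher and 4 lower in GLY. Several of the 19 had an antisense member at or near 0 in CK, such as MSTRG.5525.2, MSTRG.16346.1 and MSTRG.16344.1. Among the 4, MSTRG.15487.1 was near 0 in GLY. These members passed the filter through the other group alone, so the direction of their antisense side was in part fixed by it. With P under 0.05 in both at any fold, unadjusted, 9 pairs had opposite and 77 had the same signs, and with adjusted p under 0.05 in both the numbers were 1 and 21; at that adjusted p and any fold, 6.19% of all transcripts and 13.7% of all annotated genes passed. The absence of opposite pairs depended on single libraries and on the pseudocount. With a pseudocount of 0.1, 1 opposite pair appeared (MSTRG.11728.1). With a library left out, 2 appeared without CK2 (MSTRG.402.1 and MSTRG.4909.2), 1 without GLY2 (MSTRG.8135.1) and 1 without GLY3 (MSTRG.6643.1). Over all 865 pairs the signs were the same in 544 (62.9%), and after scaling by the median of ratios in 62.8%. These counts describe the pairs, which share libraries and in part partner genes, and were not tested.

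**Figure D3:**
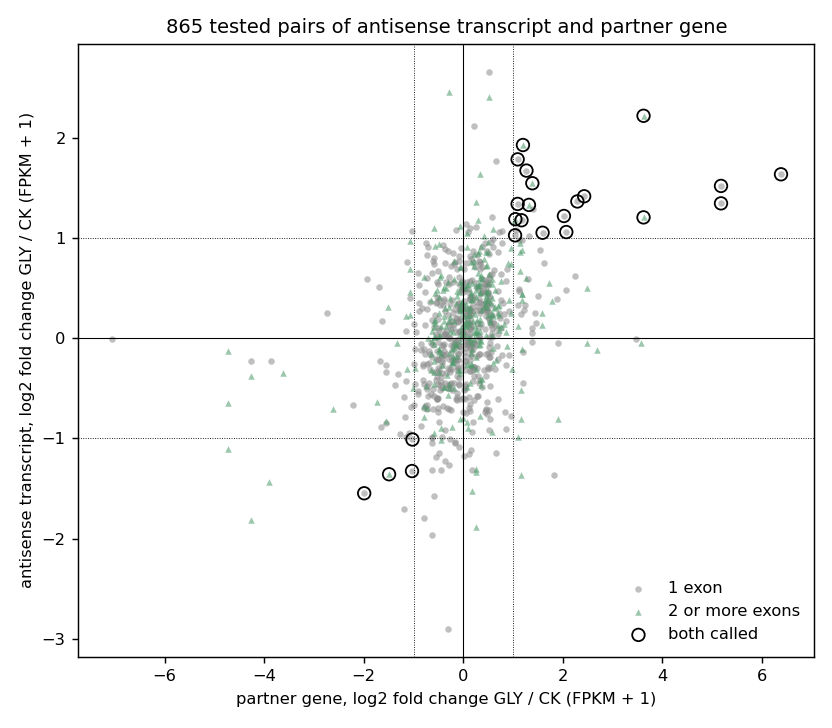
Log2 fold changes, GLY over CK on the log2(FPKM + 1) scale, of the partner gene (horizontal) and of the antisense transcript (vertical) in the 865 tested pairs; grey circles are members with 1 exon, green triangles members with 2 or more exons, black rings the 23 pairs with both sides called, and dotted lines the fold threshold. The rings lie at the upper right (19) and the lower left (4), and none lies at the upper left or lower right.

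The pairs called together were spread over the levels of the antisense side. Of the 23, 16 had a single-exon member and 7 a member with 2 or more exons. The antisense transcript was under 1% of its partner in 4 of them, between 1 and 10% in 7, between 10 and 100% in 8, and above 100% in 4.

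Among these pairs a ribonuclease gene and a peptidase gene had the largest changes on the partner side. LOC_Os09g36680 encodes a ribonuclease T2 family protein, a class of RNA-cutting enzymes that in plants work outside the cell and in the vacuole. It had 1332, 1343 and 1580 FPKM in GLY, against 20.0, 10.6 and 19.1 FPKM in CK (log2 fold change 6.38 ± 0.25 SE, limma adjusted p = 0.000326). MSTRG.26895.1 (chromosome 9, 21156013 to 21157914, plus strand, 1 exon) lies wholly inside it and had 2.66, 1.91 and 2.18 FPKM in GLY, against 0.0442, 0.0696 and 0 FPKM in CK (log2 fold change 1.64 ± 0.19 SE, limma adjusted p = 0.00965). The antisense share of the sense level was 0.159% in GLY and 0.229% in CK.

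OsPOP9 (LOC_Os04g47360) is a putative prolyl oligopeptidase, a serine peptidase that cuts short peptides after proline. It had 174, 169 and 106 FPKM in GLY, against 2.81, 3.21 and 3.18 FPKM in CK (log2 fold change 5.18 ± 0.21 SE, limma adjusted p = 0.000355). Of 2 single-exon members along it, MSTRG.16344.1 (chromosome 4, 28108705 to 28111007, minus strand) had 2.60, 2.07 and 1.20 FPKM in GLY, against 0, 0.0173 and 0 FPKM in CK (log2 fold change 1.53 ± 0.24 SE, limma adjusted p = 0.0237). MSTRG.16346.1 (28111376 to 28113004), named after its values were seen, had 2.05, 1.93 and 0.853 FPKM in GLY and was listed at 0 in CK (limma adjusted p = 0.0378). Both members and the gene were lowest in GLY3 among the GLY libraries.

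**Figure D4:**
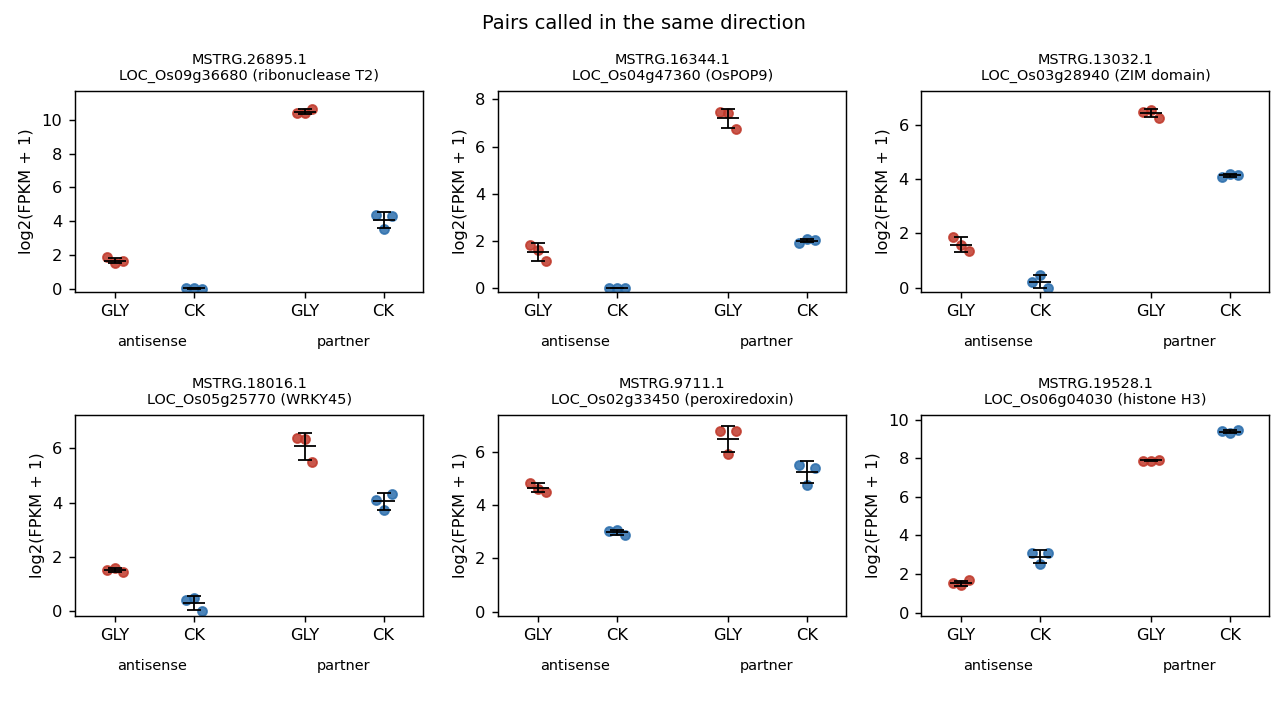
Antisense transcript (left side of each panel) and partner gene (right side) in 6 pairs called in the same direction, as log2(FPKM + 1); red points are the 3 GLY libraries, blue points the 3 CK libraries, and black bars the mean and SD. In 5 of the 6 panels both sides are higher in GLY, and in the histone H3 pair both are lower.

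The pairs at a ZIM domain gene and at WRKY45 rose on both sides. The ZIM domain gene LOC_Os03g28940, of the family that holds the JAZ repressors of jasmonate signalling, had 88.5, 93.9 and 75.8 FPKM in GLY, against 16.1, 17.2 and 16.8 FPKM in CK (log2 fold change 2.29 ± 0.11 SE, limma adjusted p = 0.000627). MSTRG.13032.1, a member of 300 bases inside it (chromosome 3, 16407769 to 16408068), had 2.67, 1.97 and 1.53 FPKM in GLY, against 0.145, 0.392 and 0 FPKM in CK (log2 fold change 1.37 ± 0.24 SE, limma adjusted p = 0.0291). WRKY45 (LOC_Os05g25770), a transcription factor of salicylate-dependent defence in rice, had 81.7, 80.8 and 43.7 FPKM in GLY, against 16.1, 12.2 and 19.0 FPKM in CK (log2 fold change 2.02 ± 0.30 SE, limma adjusted p = 0.0125). Inside it MSTRG.18016.1, named after its values were seen, had 1.91, 2.05 and 1.74 FPKM in GLY, against 0.345, 0.415 and 0 FPKM in CK (log2 fold change 1.22 ± 0.21 SE, limma adjusted p = 0.0291).

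WRKY partners were then looked at as a group, picked out after their values were seen. Of 8 WRKY partner genes tested, 4 rose (WRKY13, WRKY45, WRKY51 and WRKY53) and none fell, against 6.22% of all annotated genes that rose. Of 12 tested antisense members 2 rose, against 6.66% of all transcripts, and their median log2 fold change was 0.43, beside 0.18 for all transcripts. WRKY13 (0.87) and WRKY51 (0.91) lost their calls after scaling by the median of ratios, and WRKY13 also without CK1 (0.98), CK3 (0.98) or GLY3 (0.87). The limma adjusted p was 0.0757 for WRKY13 and 0.00216 for WRKY51. Their antisense members MSTRG.2502.1, MSTRG.2504.1 and MSTRG.15182.1 had overlapping groups and were not called. WRKY53 (LOC_Os05g27730) rose to 40.7, 28.6 and 46.3 FPKM in GLY, against 9.59, 7.77 and 11.6 FPKM in CK (log2 fold change 1.88 ± 0.23 SE). Its antisense member MSTRG.18059.1 was at 0, 0.589 and 1.83 FPKM in GLY, against 0.138, 0.374 and 0.256 FPKM in CK, overlapping groups. The reverse held at WRKY40 (LOC_Os11g02530), where MSTRG.5253.1 with 5 exons had 2.93, 3.58 and 4.22 FPKM in GLY, against 1.16, 0.965 and 1.63 FPKM in CK (log2 fold change 1.02 ± 0.20 SE, limma adjusted p = 0.0419). WRKY40 itself had 2.18, 0.174 and 3.31 FPKM in GLY, against 1.47, 0.650 and 0.654 FPKM in CK. The call of MSTRG.5253.1 sat at the threshold and was lost without CK1 (0.9999), without CK2 (0.93) and without GLY3 (0.92).

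The pairs at a peroxiredoxin gene and at a P450 gene also rose on both sides. MSTRG.9711.1 (chromosome 2, 19885419 to 19885710), inside the peroxiredoxin gene LOC_Os02g33450, had 27.8, 23.7 and 21.9 FPKM in GLY, against 7.12, 7.37 and 6.30 FPKM in CK (log2 fold change 1.68 ± 0.15 SE, limma adjusted p = 0.00513). Peroxiredoxins reduce peroxides. The gene had 112, 61.0 and 110 FPKM in GLY, against 45.6, 26.5 and 42.1 FPKM in CK (log2 fold change 1.27 ± 0.32 SE), and met the call rule with a limma adjusted p of 0.0551. MSTRG.14673.1, over the 5' end of a gene described as cytochrome P450 71E1 (LOC_Os03g63310; in sorghum the enzyme of this name acts in cyanogenic glucoside synthesis), had 2.49, 2.01 and 2.92 FPKM in GLY, against 0.10, 0.782 and 0.0925 FPKM in CK. Its log2 fold change was 1.42 ± 0.26 (SE, limma adjusted p = 0.0354), beside 2.43 ± 0.52 (SE, limma adjusted p = 0.0359) for the P450 gene.

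The spliced pair with the largest joint change was at a BURP domain gene, a plant-specific family of mostly secreted proteins. MSTRG.5525.2 (chromosome 11, 3464985 to 3465848, 5 exons in 285 bases) had 3.53, 5.91 and 2.27 FPKM in GLY and was listed at 0 in CK (limma adjusted p = 0.0152). The gene LOC_Os11g06980 had 34.1, 32.7 and 19.6 FPKM in GLY, against 0.698, 4.25 and 0.464 FPKM in CK (log2 fold change 3.62 ± 0.54 SE, limma adjusted p = 0.0128). At the beta-amylase gene of MSTRG.22919.1 the sense levels were 2.20, 1.74 and 1.91 FPKM in GLY, against 0.304, 0.388 and 0.166 FPKM in CK (log2 fold change 1.20 ± 0.14 SE, limma adjusted p = 0.00668), so the antisense side was the stronger one in GLY, at 158% of the gene.

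At LOC_Os01g40630, an uncharacterized protein, 2 separate members rose. MSTRG.1669.1 had 6.21, 3.88 and 3.72 FPKM in GLY, against 0.903, 1.10 and 0 FPKM in CK (log2 fold change 1.79 ± 0.35 SE, limma adjusted p = 0.0399). MSTRG.1667.1, named after its values were seen, had 5.21, 4.63 and 2.43 FPKM in GLY, against 1.11, 0.749 and 0.977 FPKM in CK. The gene had 430, 313 and 230 FPKM in GLY, against 157, 135 and 150 FPKM in CK (log2 fold change 1.09 ± 0.23 SE). The call of the gene was lost without GLY1 (0.87), with its most abundant transcript in place of the sum (0.97) and after scaling by the median of ratios (0.83), so under these settings the pairs were not called on both sides.

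The 4 pairs that fell together included a histone gene. MSTRG.19528.1, named after its values were seen, runs over the 5' end of the histone H3 gene LOC_Os06g04030 (chromosome 6) and had 1.87, 1.65 and 2.17 FPKM in GLY, against 7.36, 4.69 and 7.55 FPKM in CK (log2 fold change -1.36 ± 0.22 SE, limma adjusted p = 0.0243). The histone gene had 235, 234 and 241 FPKM in GLY, against 675, 632 and 696 FPKM in CK (log2 fold change -1.49 ± 0.07 SE, limma adjusted p = 0.000555). MSTRG.7654.1, over the 3' end of LOC_Os12g33150 with 110 shared bases, had 4.53, 3.38 and 1.97 FPKM in GLY, against 13.4, 8.54 and 12.1 FPKM in CK (log2 fold change -1.55 ± 0.29 SE, limma adjusted p = 0.0361). Its partner, an expressed protein, had 21.8, 28.6 and 24.4 FPKM in GLY, against 109, 91.9 and 105 FPKM in CK (log2 fold change -1.99 ± 0.14 SE, limma adjusted p = 0.00139).

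The pairs with opposite signs that came closest to a call were looked at one by one, after their values were seen. MSTRG.17075.1 (chromosome 4, 34920517 to 34922274, plus strand, 6 exons) shares 147 bases with the 3' end of LOC_Os04g58730, a gene for an AT hook protein, a motif that binds AT-rich DNA. It had 9.63, 11.1 and 9.80 FPKM in GLY, against 20.7, 20.0 and 20.3 FPKM in CK. The AT hook gene had 29.5, 29.8 and 26.5 FPKM in GLY, against 19.6, 17.4 and 19.6 FPKM in CK. Both sides separated the groups, in opposite directions, and both were under the fold threshold (log2 fold change -0.94 ± 0.13 SE, limma adjusted p = 0.0169, against 0.57 ± 0.11 SE, limma adjusted p = 0.0248). Antisense RNA was 35.5% of the gene in GLY and 108% in CK.

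At LOC_Os01g08220, a gibberellin 3-beta-dioxygenase gene (the enzyme class that makes the active gibberellins), the sense RNA rose to 2.55, 2.96 and 6.57 FPKM in GLY, against 0.362, 0.313 and 0.332 FPKM in CK (log2 fold change 1.83 ± 0.31 SE, limma adjusted p = 0.0182). MSTRG.402.1, over its 3' end by 148 bases, was at 0, 0.0332 and 0 FPKM in GLY, against 2.82, 0 and 3.65 FPKM in CK. CK2 lay with the GLY libraries, and MSTRG.402.1 was not called (log2 fold change -1.37 ± 0.59 SE, limma adjusted p = 0.24), while without CK2 it was (-2.06).

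Other opposite signs had a call on 1 side at most. MSTRG.10744.1, inside a starch synthase gene (LOC_Os02g51070), had 0, 0 and 0.399 FPKM in GLY, against 0.747, 0.947 and 1.71 FPKM in CK, and the gene had 65.7, 70.1 and 60.8 FPKM in GLY, against 32.7, 36.9 and 38.0 FPKM in CK. The gene's log2 fold change of 0.85 ± 0.11 (SE, limma adjusted p = 0.0082) was under the fold threshold. MSTRG.11728.1, inside LOC_Os03g07360, had 0.920, 1.08 and 1.0 FPKM in GLY, against 0.0952, 0.518 and 0.413 FPKM in CK, while the gene fell to 20.4, 20.0 and 16.8 FPKM in GLY, against 74.5, 77.7 and 75.8 FPKM in CK (log2 fold change -1.94 ± 0.11 SE, limma adjusted p = 0.000859). With a pseudocount of 0.1 this pair was called in opposite directions, at 1.48 for MSTRG.11728.1 (limma adjusted p = 0.213) and -1.99 for the gene. MSTRG.10825.1, inside LOC_Os02g52260, was listed at 0 in GLY and at 1.11, 1.30 and 1.24 FPKM in CK (limma adjusted p = 0.0244), and its partner had 262, 214 and 159 FPKM in GLY, against 155, 122 and 117 FPKM in CK. MSTRG.8135.1, over the 3' end of a purple acid phosphatase gene (LOC_Os12g44050), had 1.25, 1.16 and 0.356 FPKM in GLY, against 3.12, 5.96 and 2.97 FPKM in CK, and the phosphatase gene had overlapping groups.

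**Figure D5:**
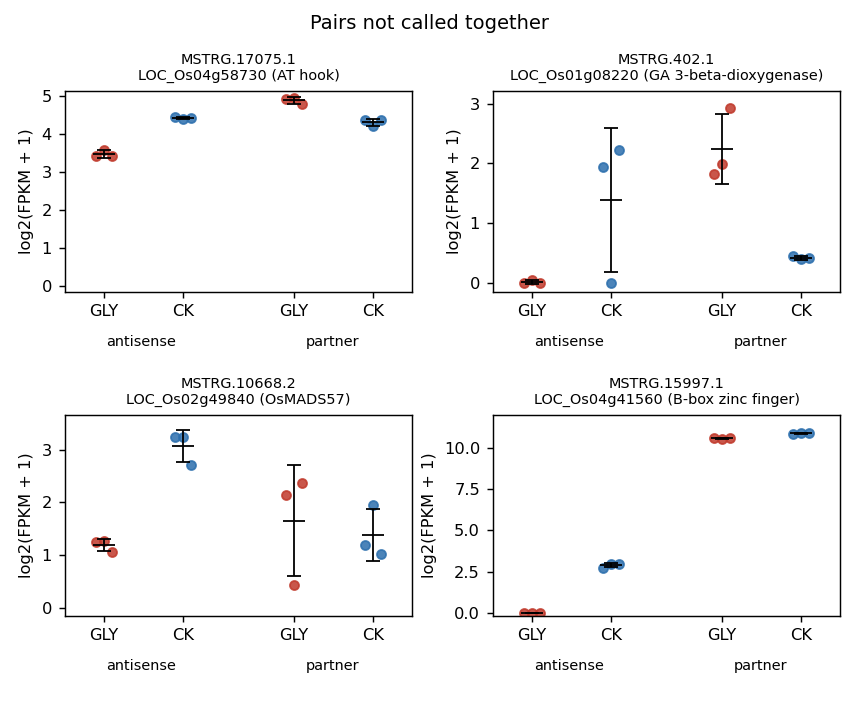
Antisense transcript (left side of each panel) and partner gene (right side) at the AT hook, gibberellin 3-beta-dioxygenase, OsMADS57 and B-box genes, as log2(FPKM + 1); red points are the 3 GLY libraries, blue points the 3 CK libraries, and black bars the mean and SD. In each panel the antisense mean is lower in GLY, and the partner is higher in GLY at the AT hook and dioxygenase genes, overlaps at OsMADS57 and differs little at the B-box gene.

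Gibberellin and ethylene genes held several further members. MSTRG.13435.1, inside a gibberellin 20 oxidase gene (LOC_Os03g42130; the class makes the precursors of active gibberellins), fell to 0, 1.60 and 1.52 FPKM in GLY, against 3.81, 8.38 and 7.71 FPKM in CK (log2 fold change -1.97 ± 0.46 SE, limma adjusted p = 0.0656). The oxidase gene had 33.1, 30.9 and 32.8 FPKM in GLY, against 30.4, 68.9 and 62.1 FPKM in CK, with overlap. MSTRG.4246.1, over the 3' end of a gene described as cytochrome P450 88A1 (LOC_Os10g23130; in maize the enzyme of this name acts in gibberellin synthesis), had 0.0344, 0 and 0 FPKM in GLY, against 1.57, 1.70 and 1.68 FPKM in CK (log2 fold change -1.39 ± 0.18 SE, limma adjusted p = 0.0133). MSTRG.293.1 had 1.41, 2.05 and 4.08 FPKM in GLY and was listed at 0 in CK (limma adjusted p = 0.0306). It reaches LOC_Os01g06220, a gene described as a putative gibberellin receptor GID1L2, while the deposited annotation assigns the member to LOC_Os01g06210. LOC_Os01g06220 had 2.51 FPKM in GLY1 and was listed at 0 in every other library.

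MSTRG.12672.1, which covers an ethylene-insensitive 3 gene (LOC_Os03g20780, of the transcription factors of ethylene signalling), had 2.67, 0 and 0 FPKM in GLY, against 2.11, 4.05 and 4.54 FPKM in CK. It met the call rule (log2 fold change -1.52 ± 0.57 SE, limma adjusted p = 0.187) with overlapping groups. That call was lost without CK2 (-1.43), CK3 (-1.36), GLY2 (-1.21) or GLY3 (-1.21). With the replicate block or without moderation of the variances it was lost as well, with P above 0.05 at the same fold change. At an auxin efflux carrier gene (LOC_Os01g69070), the sense RNA fell to 18.5, 16.7 and 17.1 FPKM in GLY, against 58.7, 53.6 and 58.7 FPKM in CK (log2 fold change -1.66 ± 0.10 SE, limma adjusted p = 0.00103). MSTRG.3450.1 inside it had 1.59, 0.901 and 0.0762 FPKM in GLY, against 1.10, 3.11 and 2.91 FPKM in CK, and was not called.

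Grouped by words in the deposited descriptions of the partners, the lists given below held few calls each. Of antisense members against transcription factor genes 4 of 59 tested rose and 6 fell, against transport genes 2 of 52 rose, against detoxification genes 2 of 26 rose and 2 fell, and against hormone genes 2 of 20 rose and 2 fell. Of all transcripts tested 6.66% rose and 2.66% fell. The share called lay above the 9.33% of all transcripts for transcription factor, detoxification, hormone and transposon genes, and below it for transport genes. These differences rest on few members and were not tested. Of 62 members against kinase genes and 33 against genes of protein turnover, 0 were called in limma, with 12 and 8 at P under 0.05, where 9.33% of all transcripts were called. For genes of aromatic amino acid synthesis, the pathway that glyphosate blocks, 0 of 3 tested members and 0 of 2 tested partners were called in limma, with 1 member and 1 partner at P under 0.05. At genes of the circadian clock 0 of 2 tested members were called, and 0 had P under 0.05. Against transposon genes 2 of 19 members rose and 3 fell, among them MSTRG.1307.1 at a centromere-specific retrotransposon (LOC_Os01g29507), with 2.19, 2.89 and 2.69 FPKM in GLY, against 0.674, 0.417 and 0.620 FPKM in CK.

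Members against photosynthesis genes had a median below that of all members. Of 35 tested, 2 fell and none rose, where 2.66% of all transcripts tested fell and 6.66% rose. Their median log2 fold change was -0.16, beside 0.14 for all members. The 26 partner genes had a median of -0.43, beside 0.17 for all annotated genes tested. MSTRG.3182.1, inside a chlorophyll a-b binding protein gene (LOC_Os01g64960), had 1.86, 1.53 and 1.06 FPKM in GLY, against 4.59, 3.45 and 4.30 FPKM in CK (log2 fold change -1.05 ± 0.20 SE, limma adjusted p = 0.0382). Without CK1 (-0.98) or GLY3 (-0.92) it fell short of the fold threshold. The other fall, MSTRG.25978.2, had 0.926, 0.756 and 0.252 FPKM in GLY, against 1.36, 2.71 and 3.85 FPKM in CK (limma adjusted p = 0.113). It lies inside LOC_Os09g17740, the gene listed at 0 in GLY3. MSTRG.20390.1, against another gene of that family (LOC_Os06g21590), differed in the other direction, with 12.8, 12.9 and 12.7 FPKM in GLY, against 7.18, 6.52 and 7.83 FPKM in CK, at 0.76 on the log2 scale (limma adjusted p = 0.034). These members were picked out after their values were seen. The summed level of this leaf gene family was itself lower in every GLY library, as given above, and in bulk leaf RNA fewer green cells and less of these RNAs per cell cannot be told apart.

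Among immune receptor genes 2 of 15 members rose and none fell, against 6.66% of all transcripts that rose. One of them, MSTRG.6583.1, had a limma adjusted p of 0.176. MSTRG.18732.1, named after its values were seen, runs over the 5' end of a disease resistance gene described as RGA2 (LOC_Os05g41310; receptors of this kind detect pathogen effectors). It had 2.22, 2.26 and 1.35 FPKM in GLY, against 0.161, 0.121 and 0.615 FPKM in CK (log2 fold change 1.18 ± 0.25 SE, limma adjusted p = 0.0489). The receptor gene had 1.07, 1.29 and 0.635 FPKM in GLY, against 0.473, 0.663 and 0.717 FPKM in CK, with overlap.

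A member can also lie just downstream of a gene on its own strand. Of the 2647, 250 (9.44%) began within 1 kb of the end of an annotated gene on the same strand. Of these, 115 were tested and 10 called, where 9.33% of all transcripts were called. For 6 of the 10 that gene was tested too, and the sign was the same in 3. Members named above that begin so close include MSTRG.2892.1 (69 bases past LOC_Os01g60850) and MSTRG.15997.1 (791 bases past LOC_Os04g41550). MSTRG.17075.1 (428 bases past LOC_Os04g58720) and MSTRG.21864.1 (255 bases past LOC_Os07g04830) do so as well. In 77 cases both the member and the gene on its own strand were tested. In 1 of them both were called: MSTRG.12578.1, which starts 525 bases past LOC_Os03g19380, with log2 fold changes of 1.03 for the member and 5.88 for that gene. MSTRG.12578.1 is also counted among the 23 pairs called in the same direction, through its partner LOC_Os03g19390, a TENA/THI-4 family gene with a log2 fold change of 1.04. The part of transcription running on from the gene on the same strand was not tested, in that pair or in the other members.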

How the data were processed

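RNA of CA21 rice leaves was measured in 6 libraries, 3 GLY and 3 CK. Per the study's methods, the authors mapped reads to the Nipponbare genome (IRGSP build 5.0) with Bowtie 2 and TopHat2, assembled transcripts with StringTie and estimated levels with Ballgown; versions are not given in the sources used here. The deposited FPKM values are per transcript, and the deposited coverage is reads per base, not divided by depth. Coordinates and gene descriptions are those of the deposited table, whose gene models carry LOC_Os identifiers.

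Here log2(FPKM + 1) was fitted with limma 3.58.1 (R 4.3.3, eBayes with trend), GLY against CK, two-sided, over every transcript whose mean reached 0.5 FPKM, and likewise over genes as summed FPKM of annotated transcripts. For a call, the log2 fold change had to reach 1 in either direction with P under 0.05. Benjamini-Hochberg adjustment ran over the whole table. The pseudocount of 1 makes fold changes of low transcripts too small. The fit was tested on simulated data. Single values per library were compared by exact permutation.

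Members named in the text are the 10 largest rises and the 10 largest falls with adjusted p under 0.05 and no overlap, the 5 same-direction pairs with the largest smaller change (no opposite pair was called), the 5 most abundant, and members with a call on either side at aromatic amino acid, detoxification, circadian clock and hormone genes. Others are said to be named after their values were seen. Members and word lists were chosen with earlier results of these data known. The alternatives tried were another pseudocount, other filters, scaling, no moderation of variances, a replicate block, single libraries left out and other definitions of the partner. A gene-level table deposited with the series was not used, because its entries carry no strand.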

Additional observations from a re-analysis of the deposited data

How the results depend on the processing

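With a pseudocount of 0.1, 225 antisense transcripts were called, 149 higher and 76 lower, with 41 same-direction pairs and 1 opposite pair (MSTRG.11728.1 with LOC_Os03g07360). Without a filter, over a larger set of transcripts and genes, 110 members were called, the adjusted-p count was 33 and 139 partner genes were called. With a minimum mean of 1 FPKM, fewer were tested: 42 members were called higher, 34 partner genes were called and 15 pairs moved together. Without moderation of the variances the adjusted-p count was 46. No pairing of the libraries by replicate number was seen in the values (correlations of deviations -0.00972 to 0.0123, and -0.00555 to 0.0022 between equal numbers). These correlations cannot show whether plants of equal number were grown or processed together. With a replicate block 108 members were called, 1 of them with adjusted p under 0.05. Among alternatives chosen after seeing the data, keeping members with 2 or more exons left 7 same-direction pairs and keeping those with at least 10% of the level of the partner left 12, both with 0 opposite pairs in limma.

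Leaving out single libraries gave 119 to 136 called members, 19 to 34 with adjusted p, 0 to 2 opposite pairs and 21 to 25 same-direction pairs. The GLY minus CK difference in summed antisense FPKM was -55.1, lay between -182 and 41.0 with a library left out, was 274 without the 10 most abundant members and -696 after scaling. The difference in members above 0 was 12, between -3.5 and 35.5 with a library left out, and negative only without GLY1. Of 751 alternative values for the 60 named calls, 730 kept direction and call, 21 kept the direction alone and 0 changed sign. Many of these calls were picked from the same data for a large change and no overlap. A kept call here rests on unadjusted P, so the count does not measure how well the adjusted p held. Under scaling the genes LOC_Os01g29507 (0.95), LOC_Os01g40630 (0.83), WRKY13 (0.87) and WRKY51 (0.91) and the member MSTRG.5253.1 (0.84) dropped under the fold threshold. MSTRG.12672.1 lost its call with the replicate block and without moderation. The cause of these shifts was not tested. Median coverage of the tested members was 4.0 reads per base, so a level near 0.5 FPKM rests on few reads, and overlapping spans limit how reads can be assigned.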
